A study of Mus musculus with 2 samples.

Results

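The genes that carry an interferon signal from the cell surface to the nucleus were followed in Dicer_KO mouse embryonic stem cells (mESCs). They comprise 9 genes, taken by name from the 43629 genes in the count tables: the receptor chains Ifnar1, Ifnar2, Ifngr1 and Ifngr2, the kinases Jak1, Jak2 and Tyk2, the transcription factor Stat2 and the inhibitor Socs1. All 9 were found. The cells derive from the E14TG2a line, of 129/Ola background, which grows in serum with leukemia inhibitory factor (LIF), and carry paired CRISPR/Cas9 deletions in Dicer1. A pair of clones with different deletions were made from sorted single cells, so a line stands for a single clone, and the sample labels do not say which deletion a library carries. PolyA-selected RNA was sequenced in 2 libraries, Dicer_KO replicate 1 at passage 7 and Dicer_KO replicate 2 at passage 4. WT mESCs and interferon-treated cells were not analysed here, so the values describe the level of each gene in Dicer_KO mESCs and how far the libraries differed. Clone, passage and library cannot be told apart between them, and with 1 library for each, no test of that difference was possible.

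Type I interferons bind a receptor made of IFNAR1, which holds the kinase TYK2, and IFNAR2, which holds JAK1. Interferon gamma binds IFNGR1, which holds JAK1, and IFNGR2, which holds JAK2. The activated kinases phosphorylate STAT proteins. STAT2 acts with IRF9 in a complex that binds the interferon-stimulated response element (ISRE), and interferon gamma acts through the gamma-activated site (GAS). SOCS1, itself induced by the pathway, blocks the kinases and closes a feedback loop. Pluripotent cells are known for a weak interferon response, and mESCs use JAK1 also for the LIF signal that keeps them undifferentiated.

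The regulatory elements are shown first, because they mark which of the 9 genes carry, next to their own start site, the letters that the pathway's end products recognise. RefSeq promoter windows (build GRCm38.p6), from 250 bases before to 50 bases after a transcription start, were at hand for 9 of the 9 genes. Both strands were searched for the ISRE core GAAANNGAAA and for the GAS core TTCNNNGAA. Stat2 and Socs1 held the ISRE core, as did 3.44% of all 32851 windows. The Stat2 match lay on the other strand from base -222 to -213, counted from the start site, and the Socs1 matches, which overlap each other, from -83 to -74 and from -77 to -68. Ifnar2 held the GAS core from -214 to -206, and in Ifnar1 a match spanned the start site, from -5 to 4. The GAS core stood in 8.30% of all windows. The other 5 genes held neither. The stretches upstream of the start are printed 5′ to 3′ on the strand of the gene, with the matched bases in capitals. Isg15, a classical interferon-stimulated gene, is added for comparison and had 3 overlapping ISRE matches. The stretches lie at chr10:128270251-128270310 (plus strand, Stat2), chr16:10785579-10785644 (minus strand, Socs1), chr4:156200850-156200921 (minus strand, Isg15) and chr16:91372544-91372602 (plus strand, Ifnar2).
Stat2, ISRE: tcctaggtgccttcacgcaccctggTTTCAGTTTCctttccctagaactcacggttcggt
Socs1, ISRE: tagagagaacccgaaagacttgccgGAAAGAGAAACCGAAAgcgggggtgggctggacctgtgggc
Isg15, ISRE: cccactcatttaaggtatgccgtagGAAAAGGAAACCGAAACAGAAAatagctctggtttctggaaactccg
Ifnar2, GAS: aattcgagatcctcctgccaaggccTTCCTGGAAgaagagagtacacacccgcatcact
A match describes the letters only, and binding was not measured. In the list of interferon-stimulated genes described later, 11 of the 23 genes with a window held the ISRE core.

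The libraries held 41710122 counts on genes in replicate 1 and 41566184 in replicate 2, so that 3 counts correspond to 0.0719 and 0.0722 CPM, the counts scaled to a library total of 1000000. Confidence intervals are 95% intervals of counting error only (Wilson for CPM, exact binomial for ratios), since reads without molecular identifiers are not independent molecules. Dicer1 had 1343 counts in replicate 1 and 1510 in replicate 2. Without WT libraries, and with counts summed over the whole gene, these do not check the deletions. The mESC markers summed to 10125 and 6517 CPM, with 10 of 10 measured in both libraries. Much of the gap came from Dppa5a, with 4792 and 2041 CPM, the only 1 of the 10 past 2-fold. After the scaling described later, 7 of the 10 were higher in replicate 1 and 3 were lower. The 6 leukocyte markers summed to 49.3 and 41.4 CPM. Most of this came from the lysosomal Cd68, with 1301 and 1409 counts, and the T cell receptor chain Cd3e, with 642 and 299. Csf1r had 95 and 1 counts and Itgam 13 and 6, while the pan-leukocyte Ptprc had 5 and 4 and Adgre1 0 and 0. The 7 fibroblast markers summed to 27.2 and 18.1 CPM, mostly from Thy1, with 823 and 621 counts, and Pdgfrb, with 285 and 91, which was higher in replicate 1 by more than 2-fold. Of the other 5, Dcn had 0 and 19 counts, and the collagen genes Col1a1 and Col3a1 had 20 and 18 and 1 and 0. Trophectoderm markers differed between the libraries, with summed levels of 375 CPM in replicate 1 and 58.4 CPM in replicate 2. Most of this came from Krt8 and Krt18, with log2 ratios (replicate 1 over replicate 2, scaled as described later) of 2.42 and 2.90. Both lie on chromosome 15, whose genes as a whole were shifted towards replicate 1, with a median of 0.59, as given later. Elf5 and Gata3, on chromosome 2, had 2.45 and 1.71, and Eomes, on chromosome 9, had 1.02. Whether the chromosome 15 shift had a part in the difference was not tested. The defining Cdx2 had 6 and 1 counts. Of the 6 markers, 5 reached a mean count of 10, and 5 of the 5 were higher in replicate 1 by more than 2-fold, against 14.2% of all genes. The 5 primitive endoderm markers summed to 16.2 and 8.52 CPM, mostly from Gata4, with 586 and 318 counts. Of the 4 that reached a mean count of 10, all were higher in replicate 1 (51.3% of all genes), with 2 past 2-fold (14.2% of all genes). Their median log2 ratio (replicate 1 over replicate 2, scaled as described later) was 1.08. In bulk RNA, fewer cells of a type and less RNA per cell cannot be told apart.

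The type I receptor was made up unevenly at the RNA level. Ifnar1 (ENSMUSG00000022967, chromosome 16, 91485238 to 91507441, plus strand) had 2305 counts in replicate 1, or 55.3 CPM (53.1 to 57.6), and 3346 in replicate 2, or 80.5 CPM (77.8 to 83.3). Ifnar2 (ENSMUSG00000022971, 91372783 to 91405589, plus strand), whose protein is the high-affinity chain, had 230 counts in replicate 1, or 5.51 CPM (4.85 to 6.27), and 198 in replicate 2, or 4.76 CPM (4.14 to 5.47). Ifnar1 was thus the higher of the pair in both libraries, and only its intervals lay apart between them. Per kilobase of annotated exon, which allows levels of different genes to be compared, Ifnar1 stood 5.62 times above Ifnar2 in replicate 1 and 9.47 times in replicate 2. With the length of the longest transcript the ratios were 7.81 and 13.2. Of the exon bases of Ifnar2, 9.46% are shared with the readthrough gene Gm21970 on the same strand. The counting left out reads on such regions, so reads there are missing from the Ifnar2 count.

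The chains of the interferon gamma receptor were closer to each other. Ifngr1 (ENSMUSG00000020009, chromosome 10, 19591949 to 19610229, plus strand), the ligand-binding chain, had 530 and 303 counts, or 12.7 CPM (11.7 to 13.8) in replicate 1 and 7.29 CPM (6.51 to 8.16) in replicate 2. Ifngr2 (ENSMUSG00000022965, chromosome 16, 91547072 to 91565623, plus strand), the signalling chain, had 1075 and 818 counts, or 25.8 CPM (24.3 to 27.4) and 19.7 CPM (18.4 to 21.1). Both genes were higher in replicate 1, with intervals that did not overlap between the libraries. Per kilobase of exon, the level of Ifngr2 was 1.53 times that of Ifngr1 in replicate 1 and 2.04 times in replicate 2. Ifnar1 stood 2.08 times above Ifngr1 in replicate 1 and 5.29 times in replicate 2, so the RNA balance between these chains differed between the libraries. The other chains, Ifnar2 (1.66 and 1.43 CPM per kb) and Ifngr2 (6.84 and 5.22), were both higher in replicate 1, so this does not extend to the receptor types as a whole.

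Jak1 had the highest level of the 9 genes. It (ENSMUSG00000028530, chromosome 4, 101152367 to 101265282, minus strand) had 5567 and 5413 counts, with a mean of 132 ± 2.29 CPM (SD, n = 2). Tyk2 (ENSMUSG00000032175, chromosome 9, 21104068 to 21131243, minus strand) had 3078 and 2292 counts and a mean of 64.5 ± 13.2 CPM. Jak2 (ENSMUSG00000024789, chromosome 19, 29251828 to 29313080, plus strand) had 1905 and 1126 counts and a mean of 36.4 ± 13.1 CPM. Jak1, the kinase shared by both receptor types and by the LIF receptor, was nearly level between the libraries, and the other kinases were higher in replicate 1. Jak3, the fourth kinase of the family, which works with the common gamma chain of cytokine receptors, had 2403 and 1357 counts. Of the summed level of the 4 kinases per kilobase of exon, Jak1 held 37.6% in replicate 1 and 48.004% in replicate 2. Tyk2 held 21.9% and 21.4%, Jak3 held 21.9% and 16.3%, and Jak2 held 18.5% and 14.3%. Of the exon bases of Tyk2, 8.07% face an antisense gene, 1700084C06Rik. The library kit marked the strand, but whether the counting used it is not given in the sources used here.

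Stat2 differed most between the libraries. It (ENSMUSG00000040033, chromosome 10, 128270559 to 128292849, plus strand) had 2484 counts in replicate 1, or 59.6 CPM (57.3 to 61.9), and 1222 in replicate 2, or 29.4 CPM (27.8 to 31.1). Its partner Irf9 in the ISRE-binding complex was steadier, with 2944 and 2482 counts and a log2 ratio of 0.12. Per kilobase of exon, the level of Stat2 was 0.767 times that of Irf9 in replicate 1 and 0.447 times in replicate 2. The level of Stat2 per kilobase of exon (10.05 and 4.96 CPM per kb) was below that of Stat6 (20.5 and 17.8) and of Stat3 (14.05 and 9.86), the transcription factor of the LIF signal. It was above that of Stat5a (1.80 and 0.725) in both libraries.

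Socs1 was the least abundant of the 9 genes. It (ENSMUSG00000038037, chromosome 16, 10782240 to 10785536, minus strand) had 141 counts in replicate 1, or 3.38 CPM (2.87 to 3.99), and 81 in replicate 2, or 1.95 CPM (1.57 to 2.42). These intervals did not overlap. Per kilobase of exon, Jak1 stood 15.9 times above Socs1 in replicate 1 and 26.9 times in replicate 2. Socs3, the inhibitor that restrains LIF signalling, stood 35.4 and 27.2 times above Socs1.

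Ordered by mean CPM per kilobase of exon, the genes ran from Jak1 (18.2) through Ifnar1 (11.4), Tyk2 (9.39), Stat2 (7.51), Jak2 (7.23), Ifngr2 (6.03), Ifngr1 (3.51) and Ifnar2 (1.54) to Socs1 (0.916). The ranges over the 2 libraries overlapped between neighbours in 4 of the 8 steps, those from Ifnar1 down to Ifngr2. Compared within each library, Tyk2 was above Stat2 in both (10.7 against 10.05 and 8.03 against 4.96 CPM per kb). Jak2 was likewise above Ifngr2 in both (9.08 against 6.84 and 5.39 against 5.22). The order of Ifnar1 and Tyk2, and that of Stat2 and Jak2, turned between the libraries. Jak1 at the top, and Ifngr1, Ifnar2 and Socs1 at the bottom, stood apart from their neighbours. With the length of the longest transcript the order was the same, but Ifngr1 (6.02 and 3.45 CPM per kb) then overlapped Ifngr2 (6.95 and 5.31), and 5 of the 8 steps overlapped. In mean count, Jak1 stood above 89.7% of the 17788 genes that reached a mean count of 10, Ifngr1 above 43.8%, Ifnar2 above 35.4% and Socs1 above 28.03%.

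**Figure D1:**
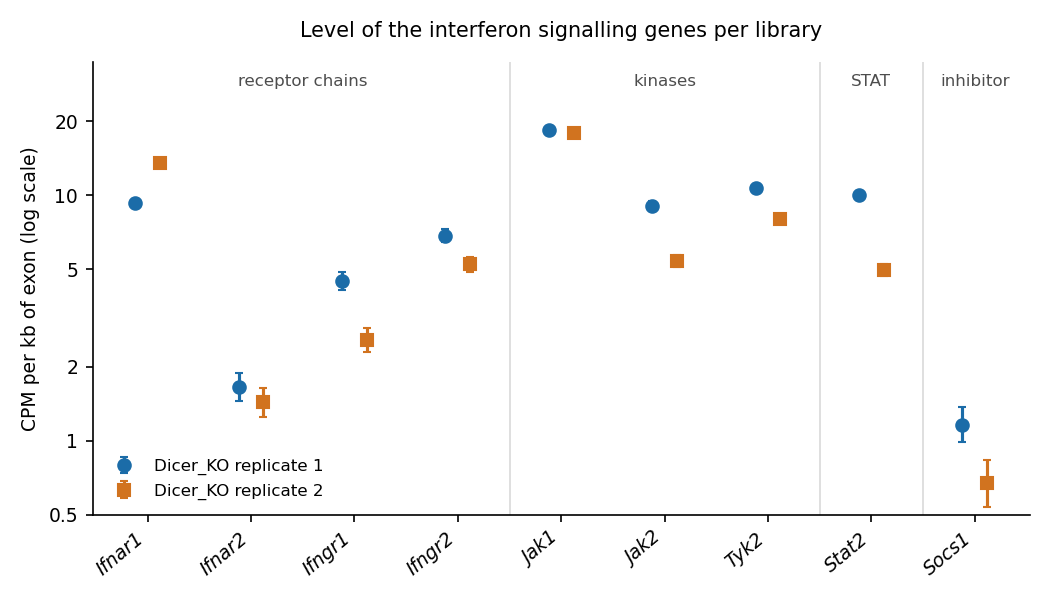
Level of each gene in CPM per kilobase of annotated exon (log axis) in Dicer_KO replicate 1 (circles) and replicate 2 (squares), with 95% Wilson intervals of counting error, which for the larger counts are smaller than the symbols. Jak1 was highest at 18.47 and 18.02, Socs1 lowest at 1.16 and 0.670, and Ifnar1 was higher in replicate 2, at 13.6 against 9.30.

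The difference between the libraries was then set against that of all genes. After TMM scaling and with a pseudocount of 1, the log2 ratio (replicate 1 over replicate 2) lay past 2-fold for 0 of the 9 genes. The share was 21.4% of the 17788 genes that reached a mean count of 10, a minimum that all 9 met. All 9 also reached a mean count of 50, and of all genes that did, 16.2% were past 2-fold. Scaled by total counts, 1 of the 9 was past it, Stat2 at 1.02. Of the 9 genes, 7 were higher in replicate 1, where 51.3% of all genes were. Their median log2 ratio was 0.30, and that of all genes was 0.02 (quartiles -0.38 and 0.54). Beyond 1.5-fold lay 5 of the 9, against 39.6% of all genes.

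The log2 ratio of Stat2 was 0.90 (0.80 to 1.00), a 1.87-fold higher level in replicate 1, and its interval reached the 2-fold mark. Ifngr1 followed at 0.68 (0.48 to 0.89), Socs1 at 0.67 (0.27 to 1.09) and Jak2 at 0.64 (0.53 to 0.74). The wide interval of Socs1 reflects its low counts. Tyk2 had 0.30 (0.22 to 0.38) and Ifngr2 0.27 (0.14 to 0.40). The interval of Ifnar2, at 0.09 (-0.19 to 0.38), held 0, so a difference was not detectable at this depth. Jak1 had -0.08 (-0.14 to -0.03), a sign that turned to 0.04 when the libraries were scaled by total counts. Ifnar1 alone of the 9 was lower in replicate 1 under each scaling, at -0.66 (-0.74 to -0.58), or 1.58-fold higher in replicate 2. Stat2 and Socs1, the holders of an ISRE core, were both higher in replicate 1, as were 51.3% of all genes. Of the genes with neither motif, Ifngr1, Jak2, Tyk2 and Ifngr2 were higher too, and Jak1 was lower. Of the holders of a GAS core, Ifnar2 was higher and Ifnar1 lower.

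**Figure D2:**
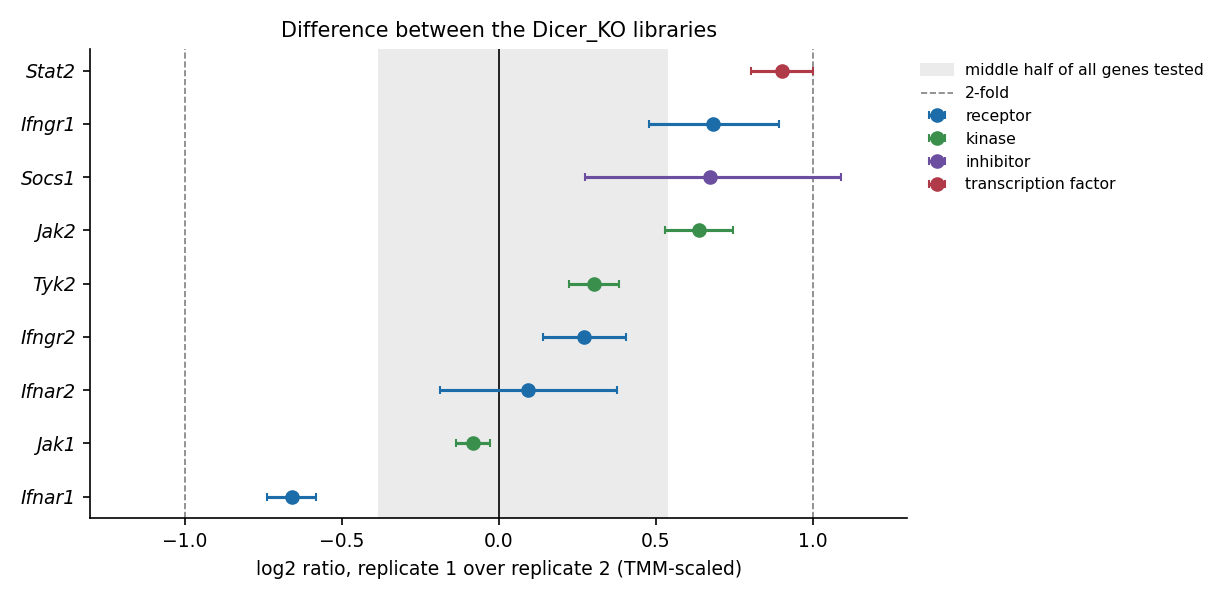
Log2 ratio of replicate 1 over replicate 2 after TMM scaling for each gene, coloured by role, with exact 95% intervals of counting error. The shaded band marks the quartiles of all genes tested (-0.38 to 0.54), and the dashed lines mark 2-fold. The interval of Ifnar2 holds 0, and the sign of Jak1 turned when the libraries were scaled by total counts.

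The genes of 3 receptor chains lie side by side on the plus strand of chromosome 16, within 192.8 kb from the start of Ifnar2 to the end of Ifngr2 (91372783 to 91565623), with Il10rb, the receptor chain shared by interleukin 10 and the lambda interferons, between Ifnar2 and Ifnar1. The protein-coding genes of this stretch did not share a common difference. The pseudogene Gm7856, between Ifnar1 and Ifngr2, had a log2 ratio of -0.64, from 29 and 42 counts, close to the -0.66 of Ifnar1. Il10rb had 168 counts in replicate 1 and 32 in replicate 2, a log2 ratio of 2.24 (1.72 to 2.86), while its flanking genes Ifnar2 and Ifnar1 had 0.09 and -0.66. Il10rb shares exons with Gm21970 too, which had 0 counts in both libraries. Ifnlr1, the specific chain of the lambda interferon receptor, lies on chromosome 4 and had 1323 and 901 counts (log2 ratio 0.43). Downstream of Ifngr2, Tmem50b had 0.62, Dnajc28 0.09, Gart -0.76 and Son -1.10. Shifts of whole chromosomes were small where the 9 genes lie: the medians of the 5 chromosomes concerned lay between 0.01 and 0.06, with 0.01 for the 509 genes of chromosome 16, which holds 4 of the 9. Chromosome 15, whose 683 genes had a median of 0.59, holds none of them.

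**Figure D3:**
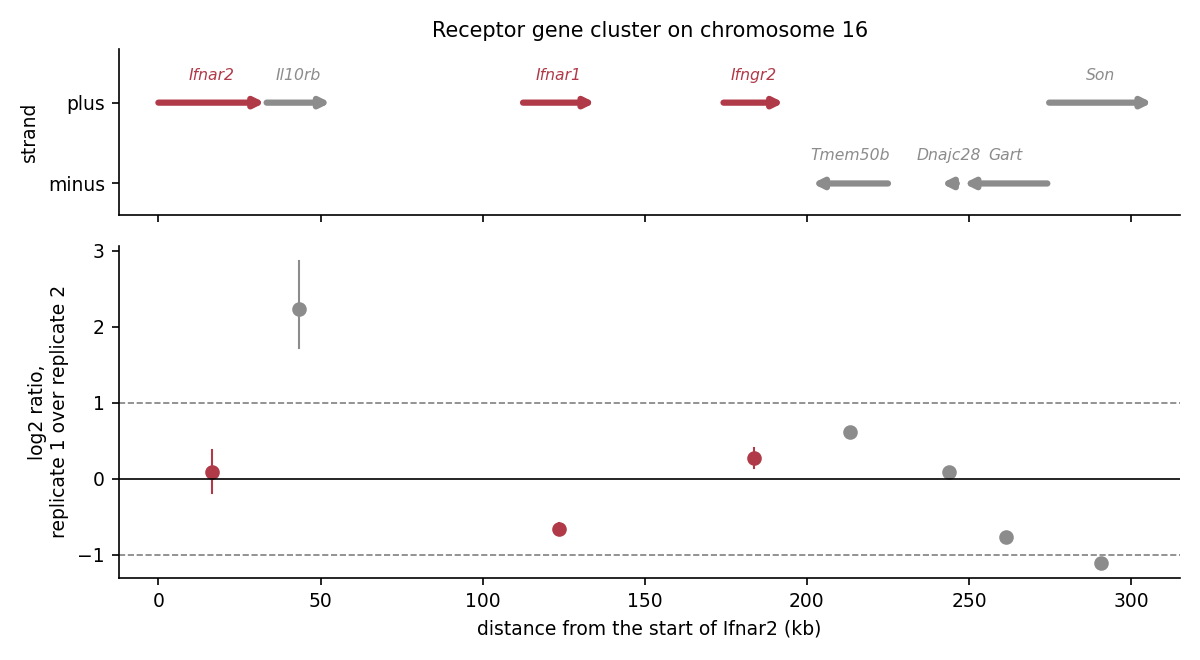
Receptor gene cluster of chromosome 16. The upper panel shows the protein-coding genes that reached a mean count of 10 by strand and distance from the start of Ifnar2 in kilobases, with the 3 receptor genes followed here in red. The lower panel shows the log2 ratio of replicate 1 over replicate 2 of each, with intervals of counting error for Ifnar2, Il10rb, Ifnar1 and Ifngr2, and dashed lines at 2-fold. Il10rb, at 2.24, stands above its neighbours at 0.09 and -0.66.

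The rest of the pathway was described from a list of 45 genes, of which 32 reached that mean count. Interferon genes themselves had almost no counts, and 8 of 12 had 0 counts in both libraries. Ifnb1 had 1 and 0, Ifng had 1 and 2, and Ifnk and Ifnl2 had 4 and 0 each, so in each library none exceeded 4 counts. How reads with several alignments were counted is not given, so reads shared among the similar Ifna genes may be missing. Of the 32 genes, 6 (18.8%) were past 2-fold, all higher in replicate 1, against 14.2% of all genes in that direction, and 0 were lower, against 7.14%. The list's median log2 ratio was 0.11. The 6 were Usp18 (3.66, from 53 and 3 counts), an enzyme that removes ISG15 and restrains IFNAR2, Il10rb, Il4ra (1.84, from 57 and 14 counts), Stat5b (1.69, from 817 and 232), Stat5a (1.19, from 535 and 215) and Socs3 (1.06, from 4958 and 2188). Il4ra is the interleukin 4 receptor chain, and Stat5a and Stat5b, which transmit growth hormone and cytokine signals, are neighbours of Stat3 on chromosome 11. The other LIF receptor genes were nearly level, with 0.09 for Il6st and -0.07 for Lifr. The phosphatase genes Ptpn11, Ptpn1, Ptpn2 and Ptpn6 had -0.13, -0.27, -0.09 and 0.34. The co-activator genes Crebbp and Ep300 had -0.60 and 0.45, and Jak3 had 0.70.

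Downstream, a list of 26 interferon-stimulated genes, of which 24 had enough counts, spread far more widely than the 9 signalling genes. In replicate 1, 13 of the 24 were higher by more than 2-fold (14.2% of all genes) and 1 was lower (7.14% of all genes). Because this list was chosen with earlier results of these data known, its shares are no independent check. The list's median log2 ratio was 1.09, with a range from -1.15 to 4.80. The 13 were Irf7, Isg15, Oasl2, Ifih1, Psmb8, Mx2, Gbp3, Psmb9, Oasl1, Ifi35, Bst2, Parp14 and Tap1. Their largest ratios were those of Irf7 (4.80, from 148 and 4 counts), which drives interferon genes, of the ubiquitin-like modifier Isg15 (4.27, from 165 and 7) and of Oasl2 (3.67, from 2969 and 214). Ddx58, which encodes the RNA sensor RIG-I, was the gene lower by more than 2-fold, at -1.15, from 2525 and 5147 counts. The other 10 lay within 2-fold, among them Ifit2 (-0.82, from 81 and 132 counts), Oas1a (-0.27), Rsad2 (0.21) and Ifit1 (0.36). In either size, 19 of the 24 were higher in replicate 1 and 5 were lower. Irf1, a GAS-driven transcription factor, was within 2-fold at 0.93, from 4724 and 2282 counts, close to the 0.90 of Stat2. The trophectoderm and primitive endoderm markers given above also moved with the libraries, with 5 of 5 and 4 of 4 higher in replicate 1, against 51.3% of all genes. Their part in these differences was not tested.

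**Figure D4:**
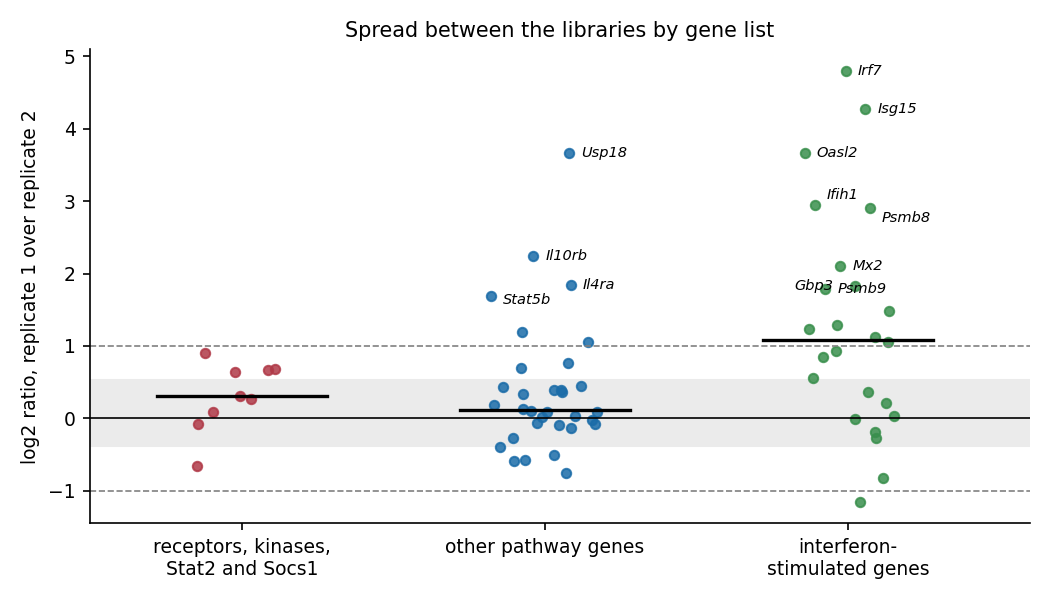
Log2 ratio of replicate 1 over replicate 2 for the 9 signalling genes, 32 other pathway genes and 24 interferon-stimulated genes that reached a mean count of 10. Points are genes, thick lines are medians (0.30, 0.11 and 1.09), the band marks the quartiles of all genes and dashed lines mark 2-fold. Under this TMM scaling the signalling genes stay within 2-fold (Stat2 reaches 1.02 when scaled by total counts), and the interferon-stimulated genes reach 4.80.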

How the data were processed

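PolyA RNA of 2 Dicer_KO mESC libraries was analysed. The authors trimmed reads with Trimmomatic, aligned them with STAR (version 2.4.2a, per the labels) to mm10 and deposited whole-number counts per Ensembl gene from featureCounts (version 1.4.5-p1), leaving out reads on overlapping regions. How reads with several alignments entered the gene counts is not given in the sources used here. Positions and exon lengths came from GENCODE M21 (GRCm38), in which 1081 listed identifiers had no entry.

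Both libraries form 1 group, so no test between them was fitted. CPM used the total counts on genes. Replicate 2 was multiplied by 1.09, the TMM scaling of edgeR (version 4.0.16, R 4.3.3). Log2 ratios used a pseudocount of 1, and intervals came from scipy (version 1.17.1). The ratios, intervals and scaling were tested on simulated data. Alternatives were total counts, DESeq2 size factors (version 1.42.0), a pseudocount of 0.1, other count minimums and thresholds, longest-transcript lengths, and each replicate left out. The genes and lists were chosen with earlier results of these data known. By rule, the 9 genes, Dicer1, and pathway and interferon-stimulated genes that passed 2-fold are named. The rule also asked for listed genes that bind one of the 9, and these may not all be named. Other named genes (cell type markers, neighbours of the receptor genes, and pathway or interferon-stimulated genes within 2-fold) were chosen after their values were seen. A gene of the pathway list and one of the leukocyte markers are not reported here and were left out of the counts and sums. Likeness of pattern cannot be measured over 2 libraries.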

Additional observations from a re-analysis of the deposited data

How the results depend on the processing

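No paired analysis was possible because the labels give only 1 condition. Of 99 values computed under alternatives for 27 results, 88 moved by less than the counting interval, the spread between the libraries, 0.1 on the log2 scale relative to all genes, or 1.5 times for counts. Values with a replicate left out move by less than that spread whatever the data, so they show no stability. Without them, 68 of 79 values stayed within these limits. Some of these could not move either. All 9 genes had a mean above 50 counts, so the other count minimums could not change their values. With none of the 9 past 2-fold, none could be past 4-fold. The tally is therefore no measure of stability. Scaling by total counts moved the median of all genes from 0.02 to 0.14 on the log2 scale, and Stat2 then had 1.02, so that 1 of the 9 genes was past 2-fold, while Jak1 changed sign to 0.04. Ifnar1 had -0.54, Jak2 0.75 and Tyk2 0.42 under that scaling. At a threshold of 1.5-fold, 5 of the 9 genes, 10 of the 32 pathway genes (31.2%) and 17 of the 24 interferon-stimulated genes (70.8%) were past it, against 39.6% of all genes. At 4-fold, 2 pathway genes and 6 interferon-stimulated genes were, against 5.71% of all genes. Without a count minimum the median of the interferon-stimulated genes was 1.18, because 2 more genes entered. The median level of the 9 genes was 36.4 CPM, and between 27.1 and 45.7 CPM with each replicate left out. Intervals cover counting error only, and the smallest counts, those of Socs1 and Ifnar2, limit what could be seen of a difference there.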
